A study of Rattus norvegicus with 22 samples.

Results

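The miR-29 family is a small group of microRNAs (miRNAs), short RNAs that guide the silencing machinery to messenger RNAs. Its members were taken by name, as every miRNA name in the files with the number 29 followed by a, b or c, of any arm or copy. This gave 7 of 468 names. The libraries were made from small RNA of hippocampal CA1 tissue, taken from Long Evans rats (a pigmented outbred strain), all male and aged 14 weeks. 11 libraries came from rats given chlorpyrifos (CPF), an organophosphate insecticide that blocks acetylcholinesterase, at 10 mg/kg per day under the skin for 21 days. The other 11 came from rats given the peanut oil vehicle alone over the same 21 days, called control. The protocols describe rats that went through fear conditioning and rats that did not, without saying which library belongs to which, so either group may hold both kinds.

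A miRNA is cut from a hairpin whose 2 arms give a 5p and a 3p strand, and bases 2 to 8 of the mature strand, the seed, do most of the target recognition. The 3p strands of miR-29 are known to repress the DNA methyltransferases Dnmt3a and Dnmt3b and many collagens and other matrix genes. In mouse brain they are rich in astrocytes, rise as the brain matures, and restrain pro-apoptotic BH3-only genes in mature neurons.

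The mature sequences show what the names share and what tells them apart, with the seed in capitals. RefSeq, in its table for the rat build GRCr8, holds 5 of the 7 names.
miR-29a-3p: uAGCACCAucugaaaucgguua
miR-29c-3p: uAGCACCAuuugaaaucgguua
miR-29b-3p: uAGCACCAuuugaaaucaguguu
miR-29a-5p: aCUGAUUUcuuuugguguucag
miR-29c-5p: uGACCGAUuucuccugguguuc
The 3p strands have the same seed, AGCACCA, which pairs with UGGUGCU in a target. Of 693 mature rat names in the table, 3 carry this seed, and all 3 belong to the family. The 5p strands have a seed each, CUGAUUU in miR-29a-5p and GACCGAU in miR-29c-5p, and no other name in the table carries either. Counting from 1 at the 5′ end, miR-29a-3p and miR-29c-3p differ by C10U alone over 22 bases. miR-29b-3p differs from miR-29c-3p by G18A, U21G and A22U and is 1 base longer, at 23. It alone of the 5 strands ends in AGUGUU, an element known from human cells to direct miR-29b to the nucleus. The files also list miR-29b with no arm and miR-29b-2-5p, for which no sequence is printed.

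The strands come from 4 hairpins in 2 pairs. In GRCr8, Mir29a and Mir29b1 lie on the minus strand of chromosome 4 with 291 bases between them, and Mir29b2 and Mir29c on the plus strand of chromosome 13 with 447 bases between them. The hairpins of the most abundant a and c members are shown with the 5p and 3p strands in capitals, in that order.
Mir29a: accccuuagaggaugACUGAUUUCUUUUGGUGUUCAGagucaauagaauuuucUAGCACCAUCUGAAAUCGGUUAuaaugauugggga
Mir29c: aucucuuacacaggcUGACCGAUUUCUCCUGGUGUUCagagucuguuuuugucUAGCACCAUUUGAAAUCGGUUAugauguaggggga
miR-29b-3p is encoded by both Mir29b1 and Mir29b2, so its level cannot be assigned to either pair.

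The values are reads per 1000000 reads assigned to miRNA names (RPM). Low values mostly come in multiples of what 1 read is worth, here 10.5 to 20.9 RPM, which puts the depth at 47844 to 94980 reads per library. In 13 libraries this held for all low values, while the other 9 also hold values that are fractions of a read, and 90.8 to 97.4% of a library's values were whole reads within 0.02 RPM. The floor used below is 3 reads, or 31.6 to 62.7 RPM depending on the library. With no molecular identifiers, this floor and the counting error cover sampling alone. No label ties a library to an animal, so the p-values speak only of the spread among libraries. Of the miRNA markers of the tissue, the neuronal ones (names of miR-124, miR-128 and miR-138) summed to 8632 to 15036 RPM in CPF and 10159 to 14179 RPM in control libraries, and 4 of their 8 tested names had a log2 fold change above 0. The oligodendrocyte markers (miR-338 and miR-219) summed to 33453 to 81828 RPM in CPF and 47329 to 90059 RPM in control libraries, with 1 of 4 tested names above 0. Most of this sum was miR-338-3p, at a mean of 53109 RPM over all libraries. The vascular smooth muscle markers (miR-143 and miR-145) summed to 218909 to 311721 RPM in CPF and 220145 to 281715 RPM in control libraries. Nearly all of it was miR-143-3p, at a mean of 263757 RPM over all libraries, beside 194.7 RPM for miR-145-5p. The sum thus describes miR-143-3p rather than both markers. Of the 2 tested smooth muscle names, 2 were above 0. Over all 273 names tested, 53.1% had a log2 fold change above 0. The sums of different cell types cannot be read as shares of cells. The summed choroid plexus and ependyma markers ran from 635 to 8005 RPM in CPF and from 580 to 1083 RPM in control libraries. All 7 of its 8 names that were tested had a log2 fold change above 0, with a median of 1.61 and a smallest limma adjusted p of 0.188. That p belonged to miR-34b-3p, which averaged 0.81 reads per library. miR-34b-5p at 0.73 and miR-34c-3p at 1.18 reads were likewise under the floor. The 7 names include both arms of miR-34b and of miR-34c, so they are not 7 separate miRNAs. In bulk tissue, a change in the number of cells of a type and a change in RNA per cell cannot be told apart.

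The family was almost wholly miR-29a-3p (listed as rno-miR-29a-3p, with a prefix for rat), at a mean of 53264 RPM in CPF and 54741 RPM in control libraries. The same strand of the c member, rno-miR-29c-3p, averaged 448.4 and 480 RPM. The 7 names together took 5.43 ± 0.797% of RPM in CPF and 5.58 ± 0.851% in control libraries (SD, n = 11 each). miR-29a-3p made up 98.1 ± 0.369% of this in CPF and 98.1 ± 0.363% in control libraries. By its mean over the 22 libraries it ranked 4 of 468 names, while miR-29c-3p ranked 76, miR-29b 79, miR-29a-5p 188, miR-29b-3p 196, miR-29c-5p 211 and miR-29b-2-5p 412. The strands compared by level are 22 or 23 bases long where RefSeq gives their sequence, so RPM differs little from a level per length here. Whether the library preparation captured each strand equally was not tested, so shares and ranks describe reads in the libraries.

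**Figure D1:**
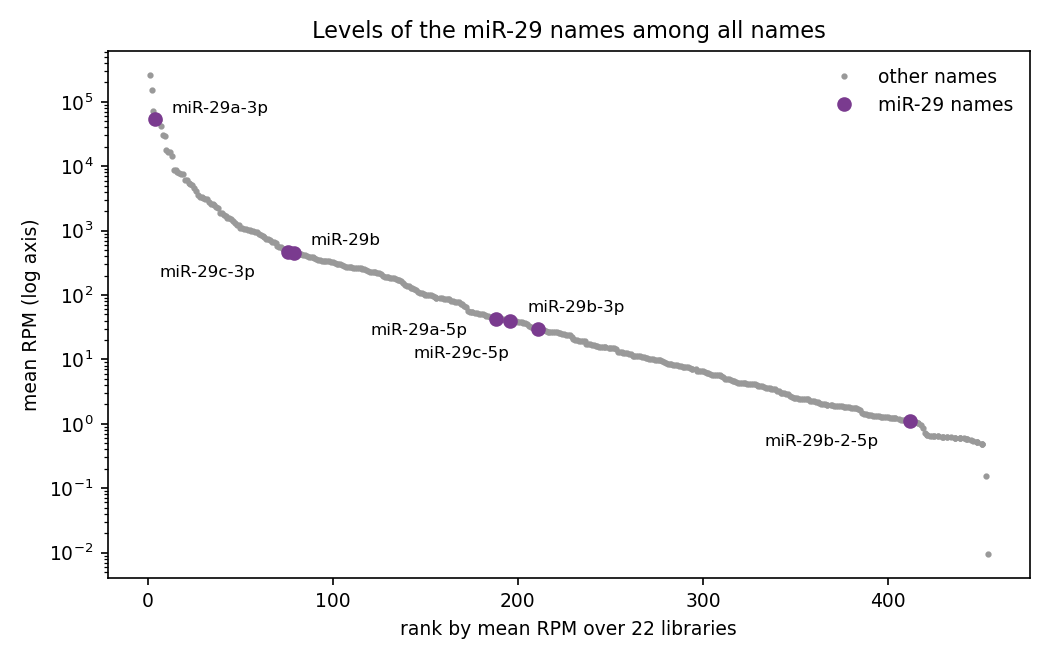
Mean RPM over 22 libraries (log axis) against rank for every miRNA name above 0, with the 7 miR-29 names in purple. miR-29a-3p stands at rank 4, miR-29c-3p and miR-29b lie next to each other at ranks 76 and 79, and the remaining names lie at rank 188 or beyond.

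The order of the levels was clear at some steps and not at others. miR-29a-3p exceeded miR-29c-3p in 22 of 22 libraries, by a factor of 79.4 to 186 in CPF (median 118) and 82.0 to 227 in control libraries (median 105.4). miR-29b exceeded miR-29a-5p in 22 of 22. miR-29c-3p and miR-29b did not separate, the first being higher in 10 libraries and the second in 12. Their ratio, miR-29b over miR-29c-3p, was 1.04 ± 0.233 in CPF and 0.956 ± 0.349 in control libraries (SD, n = 11 each). Nor did miR-29a-5p and miR-29b-3p, with miR-29a-5p higher in 9 libraries, lower in 11 and equal in 2. miR-29b-3p was above miR-29c-5p in 12, below it in 4 and equal in 6. miR-29c-5p was above miR-29b-2-5p in 18 libraries and equal to it in 4, below it in 0.

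The question of the study design was whether CPF changed the level of hippocampal miRNAs. For the miR-29 family no change was detected. Of the 7 names, 6 passed the filter of at least 10 RPM in at least 11 libraries, and 0 of these 6 differed between CPF and control libraries with limma (adjusted p under 0.05, adjusted over all 273 names tested), where 0.733% of all names did. 0 of the 6 had an unadjusted p under 0.05, where 18 of all 273 names did. With shares this low over all names, 0 of 6 is not a result particular to the family. Likewise 0 were called by edgeR or DESeq2 on recovered reads, which called 1.14% and 1.89% of 264 names. The median log2 fold change of the 6 was 0.03, beside 0.02 over all names tested.

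miR-29a-3p, the main strand and the most precisely measured, ran from 42450 to 70362 RPM with a median of 52199 in CPF libraries, and from 43071 to 75470 RPM with a median of 52741 in control libraries. The groups overlapped over nearly their whole range, with 5 of 11 CPF libraries above the control median, 0 above the highest control and 1 below the lowest. The means were 53264 ± 7953 RPM in CPF and 54741 ± 8529 RPM in control libraries (SD, n = 11 each). The log2 fold change was -0.04 (SE 0.0836, 95% CI -0.21 to 0.13, limma adjusted p = 0.954). As a ratio this interval runs from 0.864 to 1.096. Without control replicate 7, the highest library of all at 75470 RPM, the log2 fold change was 0.0089 (limma adjusted p = 0.969), and without CPF replicates 7, 8 and 9, where the choroid plexus and ependyma markers were highest, it was 0.044 (limma adjusted p = 0.981).

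miR-29c-3p, which differs from it by a single base, ran from 293 to 662 RPM (median 453) in CPF and from 332 to 653 RPM (median 495) in control libraries. CPF libraries lay above the control median in 3 of 11 cases, yet the lowest and the highest value both belonged to CPF. The means were 448.4 ± 100.2 RPM in CPF and 480 ± 104.7 RPM in control libraries (SD, n = 11 each). The log2 fold change was -0.10 (SE 0.138, 95% CI -0.38 to 0.19, limma adjusted p = 0.954), a ratio of 0.769 to 1.14.

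miR-29b, the name with no arm, ran from 294 to 554 RPM (median 482) in CPF and from 235 to 632 RPM (median 455) in control libraries. All CPF libraries lay inside the control range, and 6 of 11 lay above the control median. The means were 452 ± 91.6 RPM in CPF and 435 ± 129 RPM in control libraries (SD, n = 11 each). The log2 fold change was 0.09 (SE 0.164, 95% CI -0.24 to 0.43, limma adjusted p = 0.954), a ratio of 0.844 to 1.34. The files give miR-29b-3p under a separate name, at 9.08 ± 4.88% of the sum of both names in CPF and 7.66 ± 3.59% in control libraries. How reads were split between these names is not given in the sources used here, nor whether both stand for the same strand. The level under the name miR-29b-3p may thus be only a part of that strand's level.

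**Figure D2:**
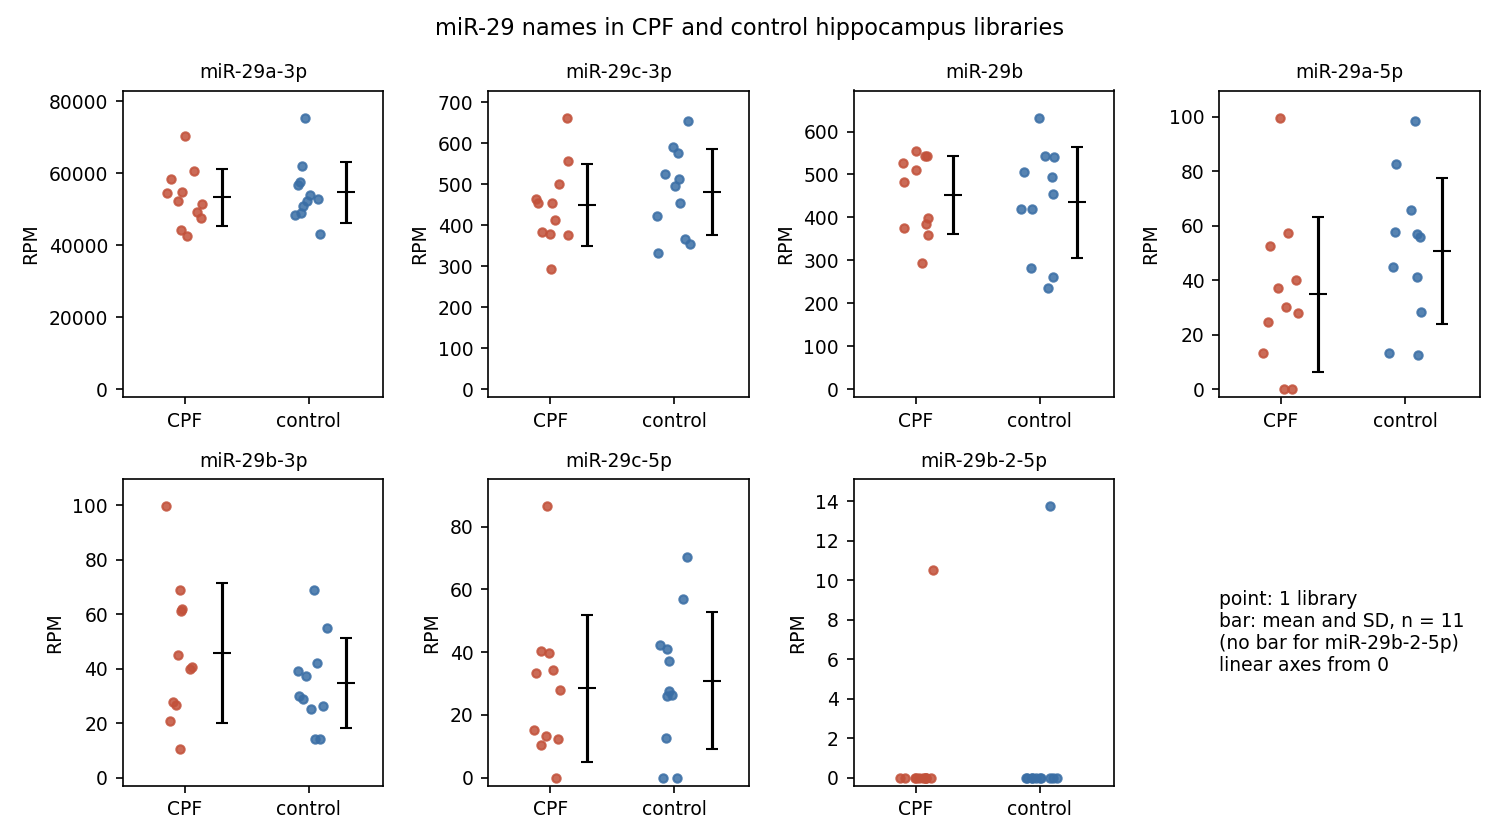
RPM of each miR-29 name in 11 CPF (left, red) and 11 control (right, blue) libraries, each on its own linear axis from 0, with points for libraries and bars for mean and SD. The groups overlap in every panel, and miR-29b-2-5p is above 0 in 1 library of each group.

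The other names were at or near the floor. miR-29a-5p, the partner strand of miR-29a-3p, ran from 0 to 99.7 RPM (median 30.02) in CPF and from 12.6 to 98.5 RPM (median 55.8) in control libraries. It was listed at 0 in 2 CPF libraries, replicates 3 and 9, and in 0 control libraries, and it averaged 2.64 reads in CPF and 3.55 reads in control libraries. Its mean was 34.8 ± 28.5 RPM in CPF and 50.7 ± 26.7 RPM in control libraries, a ratio of 0.686. On the log2(RPM + 1) scale the fold change was -1.17 (SE 0.686, 95% CI -2.57 to 0.24, limma adjusted p = 0.788). It was -0.74 when CPF replicate 3 alone was left out, and also -0.74 when CPF replicate 9 alone was. With a pseudocount of 10 it was -0.60 (limma adjusted p = 0.831), and with edgeR on recovered reads -0.48 (adjusted p = 0.868). No difference was detectable at this depth.

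Under its own name, miR-29b-3p ran from 10.5 to 99.7 RPM (median 40.5) in CPF and from 14.1 to 68.7 RPM (median 29.9) in control libraries. It averaged 3.36 reads in CPF and 2.45 reads in control libraries, and 2 CPF libraries stood above the highest control. Its log2 fold change was 0.31 (SE 0.392, 95% CI -0.49 to 1.12, limma adjusted p = 0.954). miR-29c-5p averaged 2.18 reads in CPF and 2.18 reads in control libraries (28.5 ± 23.5 and 30.9 ± 21.9 RPM), under the floor in both, so no fold change is given (limma adjusted p = 0.974). miR-29b-2-5p was at 1 read in CPF replicate 1 and in control replicate 5 and listed at 0 in the other 20 libraries, and it failed the filter.

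**Figure D3:**
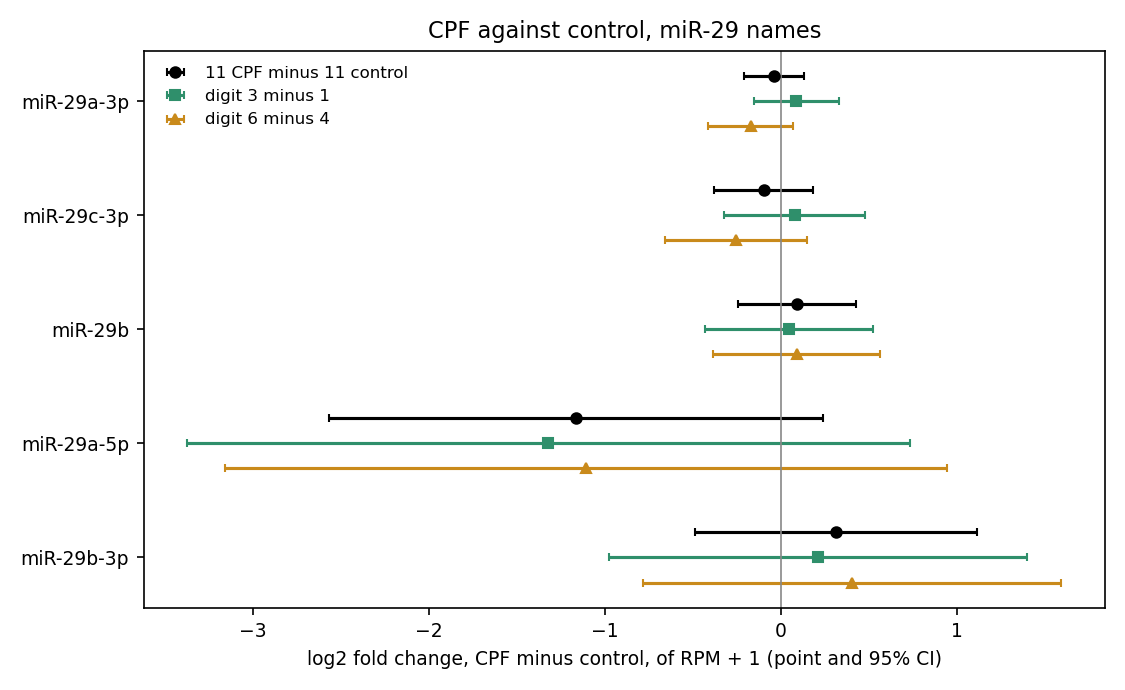
Log2 fold change of RPM + 1, CPF minus control, with 95% confidence intervals from limma, for the 5 miR-29 names that averaged 3 reads or more in a group, over all libraries (black) and within the code digit pairings 3 against 1 (green) and 6 against 4 (orange). Every interval includes 0, and those of miR-29a-5p and miR-29b-3p are several times wider than that of miR-29a-3p.

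For the 2 hairpins with a measured 3p and 5p strand, the share of reads listed as 5p differed. For miR-29a, 5p reads were 0.064 ± 0.0507% of 5p plus 3p in CPF and 0.0956 ± 0.055% in control libraries (SD, n = 11 each). For miR-29c they were 5.47 ± 3.69% in CPF and 6.06 ± 4.69% in control libraries. Summed over all libraries this was 68 reads of miR-29a-5p beside 87040 of miR-29a-3p, and 48 reads of miR-29c-5p beside 747 of miR-29c-3p. The hairpins thus lay much further apart in 3p than in 5p reads. Both 5p names are at or near the floor, and the split of 3p reads between miR-29a-3p and miR-29c-3p is uncertain, as given below. Whether the hairpins are processed differently was not tested.

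A further name bears on how reads were assigned by strand. miR-3556b comes from the strand opposite to Mir29c, and its mature sequence is the complement of bases 1 to 20 of miR-29c-3p.
miR-3556b: accgauuucaaauggugcua
It was listed at 0 in 22 of 22 libraries, which allows up to 31.6 to 62.7 RPM in a library, while miR-29c-3p stood at 293 RPM or more in each. Outside the family, some pairs of names had the same mean and spread. Examples are let-7a and miR-3596a (90.7 RPM) and miR-210-3p and miR-3574 (53.8 RPM). Whether the same reads stand under both names of such a pair was not tested. RefSeq also places Mir3556a opposite Mir29a and Mir3587 opposite Mir29b1, and these were not analysed here. Whether the counting allowed a mismatch, which would let reads pass between miR-29a-3p and miR-29c-3p at their single differing base, is not given in the sources used here, so the split between these 2 names is uncertain. miR-29c-3p stood at 0.857 ± 0.22% of miR-29a-3p in CPF and 0.899 ± 0.237% in control libraries.

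The libraries carry code numbers whose first digit divides each group, into digits 3 (n = 6) and 6 (n = 5) in CPF and digits 1 (n = 5) and 4 (n = 6) in control. What the digit stands for is not given, and setting 3 against 1 and 6 against 4 was a choice by order. miR-29a-3p averaged 55787 ± 8025 RPM at digit 3 and 52406 ± 6736 RPM at digit 1, and 50237 ± 7524 RPM at digit 6 and 56686 ± 9960 RPM at digit 4. The log2 fold change was 0.09 for digit 3 against 1 (limma adjusted p = 0.978) and -0.17 for 6 against 4 (adjusted p = 0.687), and the signs were opposite. The difference between these effects was -0.26 (95% CI -0.60 to 0.08, limma adjusted p = 0.865), so it was not shown that they differ.

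miR-29c-3p had the same pair of signs. It averaged 459 ± 112 RPM at digit 3 and 430 ± 72.4 RPM at digit 1, a log2 fold change of 0.08 (limma adjusted p = 0.984). It averaged 436 ± 95.8 RPM at digit 6 and 522 ± 114 RPM at digit 4, a log2 fold change of -0.25 (limma adjusted p = 0.745). The difference was -0.33 (95% CI -0.90 to 0.24, limma adjusted p = 0.865). miR-29b had log2 fold changes of 0.05 and 0.09 (limma adjusted p = 0.984 and 0.878), with a difference of 0.04 (95% CI -0.63 to 0.71). Over all names tested, 0.366% were called for digit 3 against 1, 0.366% for 6 against 4 and 0% for the difference.

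The names that averaged 30 reads or more varied by unequal amounts among the libraries. miR-29a-3p had a coefficient of variation over all 22 libraries of 14.97%, where its 3956 reads per library would give 1.59% from counting alone. The 20 most abundant names had a median of 11.3% (range 6.61 to 25.2%). miR-29c-3p varied by 21.8% with 17.2% from counting its 33.95 reads, and miR-29b by 24.6% with 17.6% from counting its 32.4 reads. The 35 other names at a mean of 300 to 700 RPM had a median of 23.0%, so the spread of miR-29c-3p and miR-29b was close to that of names at their level. miR-29b-3p varied by 54.1%, where counting its 2.91 reads alone would give 58.6%.

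The members' correlations from library to library were low or changed with the libraries used. With each name centred on its group mean, miR-29c-3p and miR-29a-3p had a Spearman rho of -0.13 (Pearson r -0.11) over 22 libraries. Their r was 0.24 without the 2 libraries farthest from the median of miR-29a-3p. It was -0.095 without the 2 farthest from the median of miR-29c-3p. miR-29b had a rho of 0.27 with miR-29a-3p and 0.09 with miR-29c-3p (Pearson r 0.22 and 0.0032). Without the 2 libraries farthest from the median of miR-29a-3p its r with that strand was 0.43. Without the 2 farthest from the median of miR-29b that r was 0.16. With miR-29c-3p the rho of miR-29b was 0.49 within CPF and -0.24 within control libraries. The points share a library and its total, and much of the spread of miR-29c-3p and miR-29b is counting error, so these values are descriptions. The median rho of miR-29a-3p with all names compared was 0.09.

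The names most like each member were ranked by Spearman rho among all names with a mean of at least 300 RPM. For miR-29a-3p these were miR-136-3p (rho 0.82, Pearson r 0.85), miR-9a-3p (0.74 and 0.70) and miR-551b-3p (0.71 and 0.73). miR-136-3p, from the imprinted Dlk1-Dio3 region, had a rho of 0.91 within CPF and 0.68 within control libraries, and r stayed at 0.81 without the 2 libraries farthest from the median of miR-29a-3p. It averaged 5327 ± 824 RPM in CPF and 5411 ± 977 RPM in control libraries (SD, n = 11 each). The rho of the neural miR-9a-3p was 0.81 within CPF and 0.65 within control libraries, and that of miR-551b-3p 0.90 and 0.58.

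For miR-29c-3p the most alike were miR-6331 (rho 0.66, Pearson r 0.70), miR-101a-3p (0.59 and 0.55) and let-7c (0.58 and 0.54). For miR-29b they were miR-9a-5p (0.52 and 0.44), miR-30e-3p (0.52 and 0.36) and the neuronal miR-128 (0.44 and 0.32). No name was among the first 3 of more than 1 member. These were the highest values in each case and were picked for that, so no p is given. None of these 9 names passed the test between CPF and control libraries with limma.

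**Figure D4:**
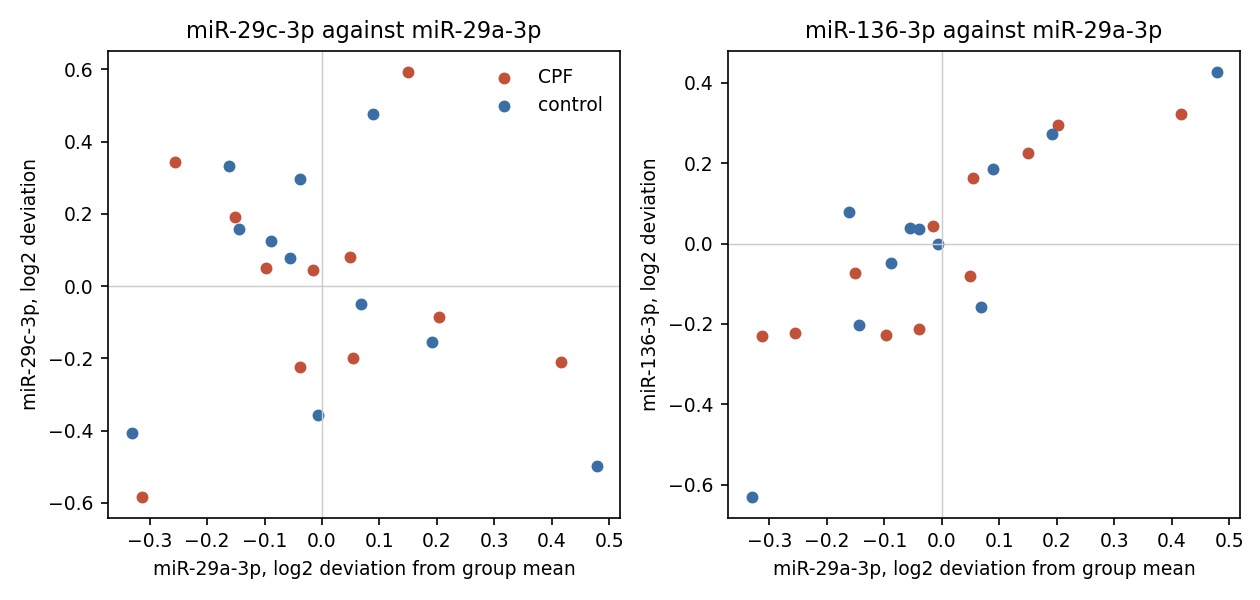
Log2 deviation from the group mean of miR-29c-3p (left) and miR-136-3p (right) against that of miR-29a-3p, with a point per library, CPF in red and control in blue. miR-136-3p rises with miR-29a-3p (rho 0.82), and miR-29c-3p, with a single base changed, has a rho of -0.13.

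Other miRNAs are reported to act on the same kinds of targets. With 0.733% of all names called, the counts of 0 below are near the share over all names. Of 12 names of miRNAs linked to transcripts of DNA methyltransferases or Tet enzymes, 8 were tested, 0 rose, 0 fell and 8 did not pass with limma, with a median log2 fold change of -0.05 and 4 of 8 above 0. Their most abundant members were miR-143-3p, reported to target Dnmt3a, at 267848 ± 26205 RPM in CPF and 259666 ± 17535 RPM in control libraries, and miR-101a-3p, at 6109 ± 1602 and 6057 ± 1540 RPM. Of 18 names of miRNAs linked to matrix genes or fibrosis, 14 were tested, 0 rose, 0 fell and 14 did not pass, with a median log2 fold change of -0.10 and 2 of 14 above 0 (14.3%), where 53.1% of all 273 names were. Their most abundant members were miR-30d-5p at 69898 ± 5541 RPM in CPF and 73180 ± 3222 RPM in control libraries, and miR-30e-5p at 15927 ± 1348 and 17124 ± 2155 RPM (SD, n = 11 each). Most of the 14 tested are names of the miR-30 family, so the 14.3% is not a share of 14 separate miRNAs. The 2 above 0 were miR-30d-3p and miR-30c-2-3p, at means of 7.41 and 2.05 reads per library.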

How the data were processed

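Per the labels, libraries came from a TruSeq small RNA kit, with sequencing by a HiScanSQ. The authors deposited a table for each library, whose header names the unit as RPM (reads per 1000000 reads). Bowtie, Partek 6.6, cutadapt 1.2, CASAVA 1.8.2 and the build rn4 stand in the submitters' processing notes, without roles. What annotation, strand rule and multiple-match rule were used is not given in the sources used here.

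RPM of names on several rows (13 names on 29 rows) were summed. The table of control replicate 2 ends at 448 of 484 rows, and its missing values were left missing. No miR-29 name is among them. A limma-trend model (limma 3.58.1, R 4.3.3) of log2(RPM + 1) compared the groups, with Benjamini-Hochberg adjustment over 273 names, threshold 0.05, two-sided. The fit was tested on simulated data. Reads were recovered as multiples of the step of low values. 90.8 to 97.4% of a library's values were whole within 0.02 RPM. edgeR 4.0.16 and DESeq2 1.42.0 on these rounded reads, over 264 names held by all libraries, called 3 and 5 names.

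The named miRNAs are the members, names with the same seed, the 3 most alike to each member above 300 RPM, and the 2 most abundant of each list. miR-3556b, opposite miR-29c, is named besides, and cell type markers are given by list. The members, lists and settings were chosen with earlier results of these data known. Mature sequences came from RefSeq (GRCr8), which differs from rn4, so no coordinates are printed.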

Additional observations from a re-analysis of the deposited data

Results flagged for a closer look

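miR-29a-3p in control replicate 7 was highest, at 75470 RPM. The remaining 5 control libraries with code digit 4 held 48431 to 57656 RPM. Its gap to the nearest library was 0.659 of the range of the 6. Of 20 sets of libraries examined this way (5 names by 4 digits) it was the only such value, and chance gives about 1 in 20.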

How the results depend on the processing

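Besides the main settings, 9 others and 22 that each leave out a library were tried. None called a miR-29 name. miR-29a-3p changed sign without CPF replicates 7, 8 and 9, at 0.044 (limma adjusted p = 0.981), and ran from -0.080 to 0.0089 when each library was left out, above 0 only without control replicate 7. Likewise miR-29c-3p ran from -0.16 to -0.04 and miR-29b from 0.01 to 0.15, with -0.07 and 0.22 without CPF replicates 7, 8 and 9. The name counts were 2 to 3 when leaving out a library and 5 with DESeq2, against 2 with limma and 3 with edgeR. When each library was left out, miR-29a-5p ran from -1.40 to -0.74, -0.74 being without CPF replicate 3 or 9, and miR-29b-3p from 0.18 without CPF replicate 6 to 0.49 without CPF replicate 1. A minimum of 50 RPM removed miR-29a-5p and miR-29b-3p. miR-29a-5p was at -1.34 with a pseudocount of 0.5 and -0.50 with DESeq2. With the replicate number as a block, miR-29a-3p had a limma adjusted p of 0.975 (its log2 fold change of -0.04 cannot move in a balanced block) and 2 names passed. Same-numbered libraries had correlations of their deviations of -0.087 to 0.193, over 0.1 in 2 of 11 pairs, and 2 of 22 libraries correlated best with their own number, so the numbers were not taken to pair them. The depth limits miR-29b-2-5p, at 1 read in 2 libraries, and miR-29a-5p, miR-29c-5p and miR-29b-3p, which averaged 2.18 to 3.55 reads per library in a group.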
